A study of Mus musculus with 35 samples.

Results

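The 5 genes described here are those of proteases that skin mast cells of mice are known to keep in their secretory granules. They were chosen by symbol (Tpsab1, Tpsb2, Mcpt4, Cma1 and Cpa3), and all 5 were found among the 22609 gene symbols of each count table, in all 35 libraries. Each library is messenger RNA from sorted cells of the hind paw skin of mice. Immune cells were sorted by CD45 from WT mice, fibroblasts by tdTom from Col1a2-cre-ER/tdTom mice and keratinocytes by tdTom from K5-cre-ER/tdTom mice, so that each sort also came from its own genotype. Within each sort there were males given PTX (paclitaxel, a drug that stabilises microtubules and is used in chemotherapy), vehicle-treated females and vehicle-treated males, with 4 libraries a group except 3 for keratinocytes of vehicle males. PTX males received 2 intraperitoneal injections of 2 mg/kg with 1 day between them, and tissue was collected 6 days later. All mice were C57 by strain and between 8 and 16 weeks old, and the groups of one sort share its genotype. In the 2 Cre lines the sorted cells are those in which the Col1a2 or the K5 promoter had driven the inducible Cre. No PTX females were sequenced. Whether the libraries of a group come from different mice is not stated, and p-values then reflect the spread among libraries alone, part of which may be technical.

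Mast cells are tissue-resident immune cells that depend on the receptor Kit and release preformed granule contents when they are activated. In the granules the proteases are bound to heparin on the core protein serglycin. Tpsb2 (mMCP-6) and Tpsab1 (mMCP-7) are tryptases, trypsin-like serine proteases that cleave after basic residues. Mcpt4 (mMCP-4) and Cma1 (mMCP-5) are in the chymase family. Mcpt4 has chymotrypsin-like activity, and mouse Cma1 is known for elastase-like activity. Cpa3, mast cell carboxypeptidase A, is a metalloprotease that removes residues from the end of peptides. Granules of connective tissue mast cells, the type found in skin, are known to hold these proteases. RefSeq lists Tpsab1 as a transcribed pseudogene in its mouse reference, which is of the strain C57BL/6J. The labels give the strain only as C57. Counts of Tpsab1 here are counts of its transcripts, and whether these mice make its protein was not tested.

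The tryptase genes lie next to each other on chromosome 17, with Tpsb2 the first gene listed after Tpsab1. Mcpt4 and Cma1 lie on chromosome 14, in a cluster that also holds Cma2, Mcpt1, Mcpt2, Mcpt9, Mcpt8 and Ctsg, and Cpa3 lies on chromosome 3. The 2 tryptases are related enough for their reads to be a concern, so their coding sequences from GENCODE M21 were aligned. They were identical at 629 of 827 aligned bases, or 76.1%. Reads were 50 bases long, and 0 of the 1107 windows of 50 bases in the Tpsab1 transcript occurred unchanged in another gene. With up to 2 mismatches, 19 of these windows (1.72%) were found in Tpsb2, and 19 of the 1069 windows of Tpsb2 (1.78%) in Tpsab1. The following pair of windows, bases 289 to 338 of the Tpsab1 coding sequence and bases 187 to 236 of that of Tpsb2, is among the most alike of 704 aligned windows and is shown for how close a read can come, with its 2 differing positions in capitals.
Tpsab1: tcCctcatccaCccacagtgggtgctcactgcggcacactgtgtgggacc
Tpsb2: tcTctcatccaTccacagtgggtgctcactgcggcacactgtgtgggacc
The pair directly after it, bases 338 to 387 of Tpsab1 and 236 to 285 of Tpsb2, shows how far apart the 2 sequences are elsewhere, with 22 differing positions in capitals.
Tpsab1: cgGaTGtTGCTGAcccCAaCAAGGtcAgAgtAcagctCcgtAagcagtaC
Tpsb2: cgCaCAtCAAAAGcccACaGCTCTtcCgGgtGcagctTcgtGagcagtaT
Over all aligned windows the median was 13 differences, and 0 windows had none. Of the other members, Mcpt4 shared 58 of 1059 windows (5.48%) exactly with Cma2 or Mcpt9, Cma1 shared 56 of 1025 (5.46%) with Gm48934, and Cpa3 shared 0 of 1400 with any other gene.

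Promoters of Mcpt4, Cma1 and Cpa3 are shown because GATA factors (Gata2 in mast cells) are known to act on mast cell genes, and Gata2 was among the genes most like the proteases in pattern. The sequences are the 250 bases before the start of each gene in RefSeq's GRCm38.p6, written 5′ to 3′ on the gene's own strand, the minus strand for all 3, with capitals on the motif GATAA, which reads TTATC where it lies on the other strand. Mcpt4 is chr14:56062311-56062560, Cma1 is chr14:55944676-55944925 and Cpa3 is chr3:20242182-20242431.
Mcpt4: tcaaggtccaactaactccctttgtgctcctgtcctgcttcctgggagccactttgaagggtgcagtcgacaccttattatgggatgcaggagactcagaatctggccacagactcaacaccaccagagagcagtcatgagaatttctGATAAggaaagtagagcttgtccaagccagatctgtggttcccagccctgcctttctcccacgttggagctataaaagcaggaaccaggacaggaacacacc
Cma1: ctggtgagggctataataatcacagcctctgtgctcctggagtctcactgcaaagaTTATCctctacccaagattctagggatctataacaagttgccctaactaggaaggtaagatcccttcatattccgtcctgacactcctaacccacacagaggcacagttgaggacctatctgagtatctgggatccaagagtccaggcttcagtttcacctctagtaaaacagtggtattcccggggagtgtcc
Cpa3: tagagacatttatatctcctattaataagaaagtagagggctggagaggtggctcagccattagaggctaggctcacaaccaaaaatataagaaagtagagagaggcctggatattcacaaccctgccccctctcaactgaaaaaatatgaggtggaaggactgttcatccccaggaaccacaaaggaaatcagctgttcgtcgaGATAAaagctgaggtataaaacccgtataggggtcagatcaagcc
The first base of the motif lay 102 bases before the start in Mcpt4, 194 bases before it in Cma1 and 45 bases before it in Cpa3. Each promoter held it once, on the gene's own strand in Mcpt4 and Cpa3 and on the opposite strand in Cma1. Of 32851 mouse promoters of the same length, 22.6% held the motif on either strand, and a match says nothing of whether a factor binds.

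Total counts in genes ranged from 13847475 to 18979776 over the immune libraries, from 13359088 to 20809036 over the fibroblast libraries and from 988712 to 12055718 over the keratinocyte libraries. Some libraries held markers of other cell types. Over the 7 fibroblast markers the summed level in immune libraries was 235 to 1442 CPM (CPM being the count scaled to a common library size within the sort, by TMM) in PTX males, 82.4 to 387 CPM in vehicle females and 4296 to 9881 CPM in vehicle males. In keratinocyte libraries the same sum was 14280 to 20100 CPM in PTX males, 201 to 1265 CPM in vehicle females and 110 to 573 CPM in vehicle males. The 6 basal keratinocyte markers in the same libraries summed to 3554 to 12550 CPM in PTX males, 16390 to 29990 CPM in vehicle females and 22670 to 30600 CPM in vehicle males, and fibroblast libraries held 31960 to 74320 CPM of the fibroblast markers. Replicate 2 of the keratinocyte PTX males stood apart from all other keratinocyte libraries in the mast cell proteases, so results that rest on it are given with and without it. Ptprc, which encodes CD45, was at 361 to 839 CPM in every immune library, and the keratinocyte PTX libraries also held it, at 149 to 240 CPM.

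In immune cells all 5 proteases were higher in PTX males than in vehicle males, by 2.43-fold (Cma1) to 4.19-fold (Tpsab1), and all 5 were also higher in vehicle females than in vehicle males, by 3.79-fold (Tpsab1) to 4.31-fold (Cpa3). PTX males and vehicle females did not differ detectably in any of them. Summed over the 5 genes, the level was 4603 ± 1602 CPM in PTX males, 6210 ± 1124 CPM in vehicle females and 1540 ± 585 CPM in vehicle males (SD, n = 4 each). The vehicle males were thus the low group of the 3, and they enter both comparisons, which are not independent of each other. Genes with over 10 counts numbered 5956 to 8700 in PTX male libraries, 10974 to 11036 in vehicle female libraries and 11000 to 12813 in vehicle male libraries, and TMM factors were 0.78 to 0.94, 0.99 to 1.11 and 1.07 to 1.13 in the same groups, so the number of genes detected moved with PTX, and its part in the protease differences was not tested. These are sorted bulk samples, in which fewer mast cells and less RNA per mast cell cannot be told apart.

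**Figure D1:**
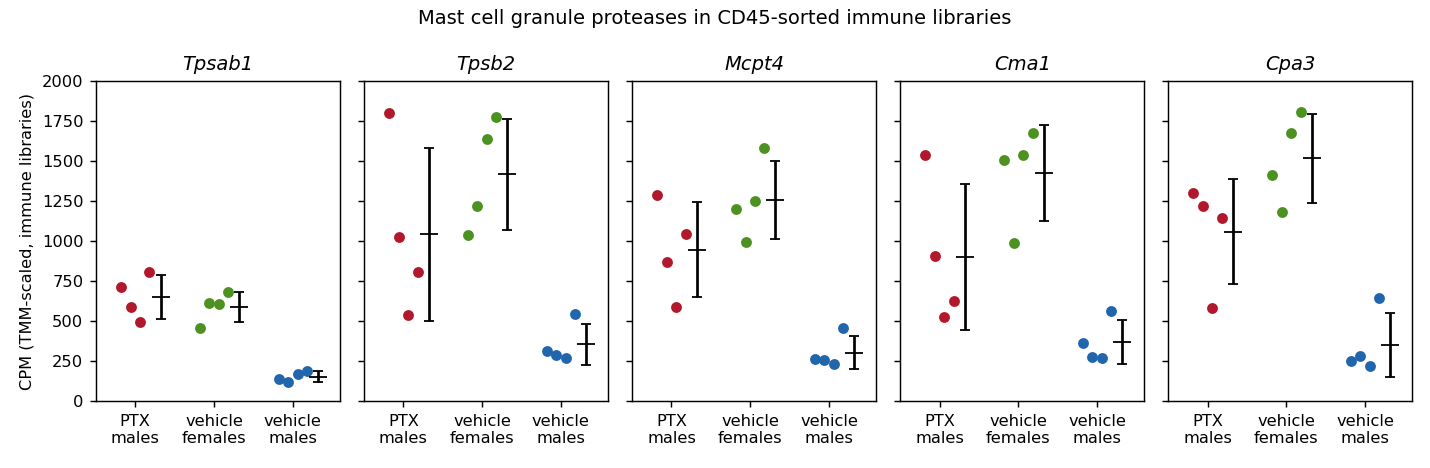
Level of each protease (CPM, TMM-scaled over the immune libraries, linear axis from 0) in every CD45-sorted library, with PTX males, vehicle females and vehicle males from left to right; points are libraries and bars give the mean and SD of 4. Vehicle males form the low group for every gene, and PTX males of Tpsb2 (539 to 1797 CPM) and Cma1 (526 to 1538 CPM) spread widely.

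The tryptase Tpsab1 had 715, 592, 493 and 808 CPM in PTX males, 459, 612, 606 and 681 CPM in vehicle females, and 141, 119, 171 and 191 CPM in vehicle males. Every PTX male and vehicle female library was more than 2 times as high as every vehicle male library, and the first 2 groups overlapped. The log2 fold change was 2.07 ± 0.24 for PTX males over vehicle males (SE, adjusted p = 0.000964) and 1.92 ± 0.23 for vehicle females over vehicle males (adjusted p = 0.00186).

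Tpsb2, the other tryptase, had 1797, 1025, 539 and 807 CPM in PTX males, 1038, 1217, 1639 and 1776 CPM in vehicle females, and 315, 289, 274 and 546 CPM in vehicle males. The lowest PTX male library (replicate 3) lay just under the highest vehicle male library (replicate 4), whereas every vehicle female library lay above every vehicle male library. The log2 fold change was 1.55 ± 0.35 over vehicle males for PTX males (adjusted p = 0.0248) and 1.99 ± 0.36 for vehicle females (adjusted p = 0.0310).

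Of the chymase family, Mcpt4 had 1289, 872, 588 and 1044 CPM in PTX males, 1204, 994, 1253 and 1582 CPM in vehicle females, and 267, 261, 231 and 460 CPM in vehicle males. Neither of the first 2 groups overlapped with vehicle males, and the log2 fold change was 1.64 ± 0.28 for PTX males (adjusted p = 0.00766) and 2.04 ± 0.28 for vehicle females (adjusted p = 0.00639), both over vehicle males. Cma1 had 1538, 907, 526 and 629 CPM in PTX males, 1506, 989, 1535 and 1675 CPM in vehicle females, and 367, 277, 273 and 567 CPM in vehicle males. Replicate 1 of the PTX males was at the level of vehicle females, while replicate 3 was below the highest vehicle male. Its log2 fold change over vehicle males was the lowest of the 5 in PTX males, 1.28 ± 0.34 (adjusted p = 0.0452), and 1.94 ± 0.35 in vehicle females (adjusted p = 0.0310).

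The carboxypeptidase Cpa3 had 1301, 1217, 581 and 1142 CPM in PTX males, 1413, 1182, 1674 and 1805 CPM in vehicle females, and 254, 286, 222 and 648 CPM in vehicle males. Again PTX male replicate 3 was the one library that fell under the highest vehicle male library, replicate 4. The log2 fold change over vehicle males was 1.59 ± 0.35 for PTX males (adjusted p = 0.0212) and 2.11 ± 0.35 for vehicle females (adjusted p = 0.0202).

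Thus 5 of 5 members passed as higher in PTX males than in vehicle males, where 0.956% of the 12131 genes tested were called higher and 4.56% lower, and 2 of 5 (Tpsab1 and Mcpt4) had no overlap between the groups, against 3.11% of all genes with PTX males all higher. In vehicle females over vehicle males 5 of 5 passed, where 0.0659% of genes (8 genes, the 5 members included) were called higher and 0.289% lower, and 5 of 5 had no overlap, against 2.07% of all genes. The median log2 fold change of the 5 was 1.59 in PTX males over vehicle males, beside 0.096 over all genes tested, and 1.99 in vehicle females over vehicle males, beside 0.004. These tests used edgeR's quasi-likelihood method with Benjamini-Hochberg adjustment over all genes tested, at a threshold of 0.05. Of the 12131 genes, 2435 had an unadjusted p under 0.05 in PTX males over vehicle males. The number was 499 in vehicle females over vehicle males and 1910 in PTX males over vehicle females.

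**Figure D2:**
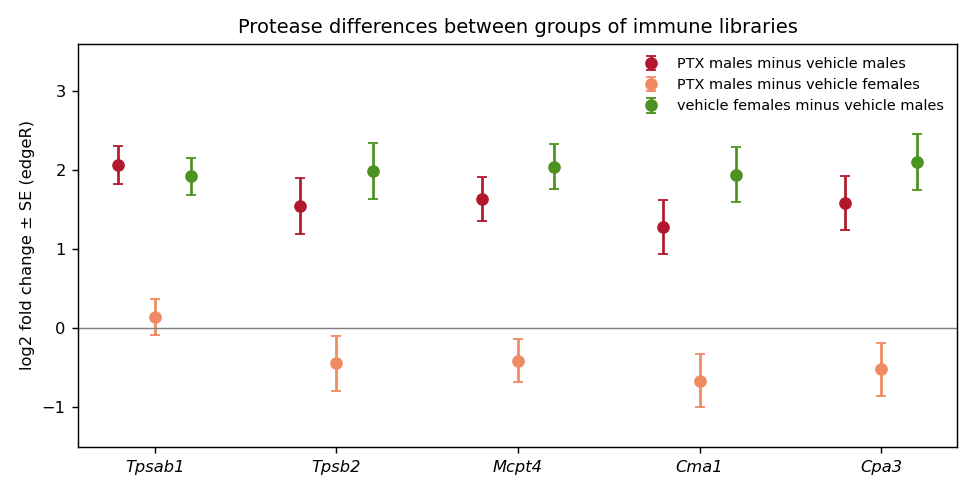
Log2 fold change with its SE (edgeR, all 12 immune libraries in 1 fit) of each protease for PTX males over vehicle males, PTX males over vehicle females and vehicle females over vehicle males. Values over vehicle males lie between 1.28 and 2.11, and those over vehicle females between -0.66 and 0.15.

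The calls of Tpsab1 and Mcpt4 passed whichever single library was left out, and those of Tpsb2, Cma1 and Cpa3 did not. For PTX males over vehicle males, 2 members (Tpsab1 and Mcpt4) passed without vehicle male replicate 1, 2 or 3 or PTX male replicate 1, 3 without PTX male replicate 4, 4 without PTX male replicate 2, and 5 without vehicle male replicate 4 or PTX male replicate 3. For vehicle females over vehicle males, 2 (the same 2) passed without vehicle female replicate 1, 3 or 4 or vehicle male replicate 1, 2 or 3, and 5 without vehicle female replicate 2 or vehicle male replicate 4. Another scaling used 2535 genes that were at least 4 times higher in vehicle immune libraries than in the other sorts. They were chosen from these same libraries, and the 5 members are among them. This scaling moved the median over all genes by -0.59 for PTX males and by -0.39 for vehicle females, both over vehicle males. It left 1 member (Tpsab1) called in each comparison. All calls then split into 15 higher and 705 lower, against 116 higher and 553 lower with TMM, for PTX males, and into 2 higher and 55 lower, against 8 and 35, for vehicle females. Plain CPM moved the median by -0.35 for PTX males, split the calls into 37 higher and 607 lower, and left 2 members (Tpsab1 and Mcpt4) called. With scaling on immune genes the log2 fold changes were 0.61 to 1.45 for PTX males and 1.5 to 1.63 for vehicle females. Relative to the median of all genes they were 1.10 to 1.94 and 1.89 to 2.01, against 1.18 to 1.97 and 1.92 to 2.10 with TMM over all genes. A change of scaling shifts all genes by nearly the same amount, which subtracting the median takes off again. These relative values therefore had to stay close and are no test of the calls.

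Between PTX males and vehicle females 0 of 5 members passed with edgeR, 0 had an unadjusted p under 0.05 and 0 passed with DESeq2, where 0.231% of genes were called higher and 1.53% lower. Tpsab1 was at 0.15 ± 0.23 on the log2 scale (adjusted p = 0.920), a value that was -0.14 with plain CPM and -0.07 with scaling on immune genes. The others were at -0.44 ± 0.34 (Tpsb2), -0.41 ± 0.27 (Mcpt4), -0.66 ± 0.34 (Cma1) and -0.52 ± 0.34 (Cpa3), with adjusted p between 0.384 and 0.700. Sex and treatment differ together between these groups and cannot be told apart, and vehicle females also enter the comparison with vehicle males.

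The members also varied together from library to library. Over the 12 immune libraries Pearson's r between pairs of members, on log2(CPM + 1), ranged from 0.808 (Tpsab1 with Cma1) to 0.986 (Mcpt4 with Cpa3). After each group's mean was taken off, r of each member with the mean of the other 4 was 0.951 for Mcpt4, 0.923 for Tpsb2, 0.888 for Cpa3, 0.845 for Cma1 and 0.585 for Tpsab1. The libraries of a group share its level, and all values of a library share its depth and scaling. Replicate 1 of the PTX males had the highest sum of the 5 in its group, 6640 CPM, and replicate 3 the lowest, 2727 CPM. Among vehicle males replicate 4 was highest with 2411 CPM, and the other 3 libraries were at 1171 to 1344 CPM.

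Together the 5 genes took 0.255 to 0.537% of all gene counts in PTX males, 0.555 to 0.782% in vehicle females and 0.132 to 0.271% in vehicle males. Set against Ptprc, a gene of all immune cells, there were 7.66 ± 3.09 counts of the 5 per Ptprc count in PTX males, 11.3 ± 3.82 in vehicle females and 3.49 ± 2.14 in vehicle males (SD, n = 4 each). On this scale PTX males (3.25 to 10.04) and vehicle males (2.10 to 6.68) overlapped, and the lowest vehicle female library, at 6.95, lay just above the highest vehicle male library. Per kilobase of transcript the member with the lowest mean was Tpsab1, at 564 ± 120 CPM per kb in PTX males, 510 ± 80.8 in vehicle females and 135 ± 27.6 in vehicle males. The other 4 averaged 732 to 932 CPM per kb in PTX males, 1048 to 1328 in vehicle females and 243 to 345 in vehicle males. Mean ± SD of Tpsab1 lay apart from those of the other 4 in vehicle females and overlapped with at least 1 of them in PTX males and in vehicle males.

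The shares of the 5 genes in their summed counts overlapped between the immune groups. Tpsab1 made up 10.8 to 18.2% of their summed counts in PTX males, 8.17 to 12.3% in vehicle females and 7.93 to 14.6% in vehicle males. Cma1 made up 14.2 to 23.2% in PTX males, 19.8 to 26.8% in vehicle females and 22.5 to 27.3% in vehicle males. Mcpt4 stayed between 18.7 and 23.6% over all 12 libraries. PTX male replicate 4 had about as many counts of Tpsab1 as of Tpsb2 (9487 and 9475), whereas Tpsb2 outnumbered Tpsab1 in every other immune library.

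**Figure D3:**
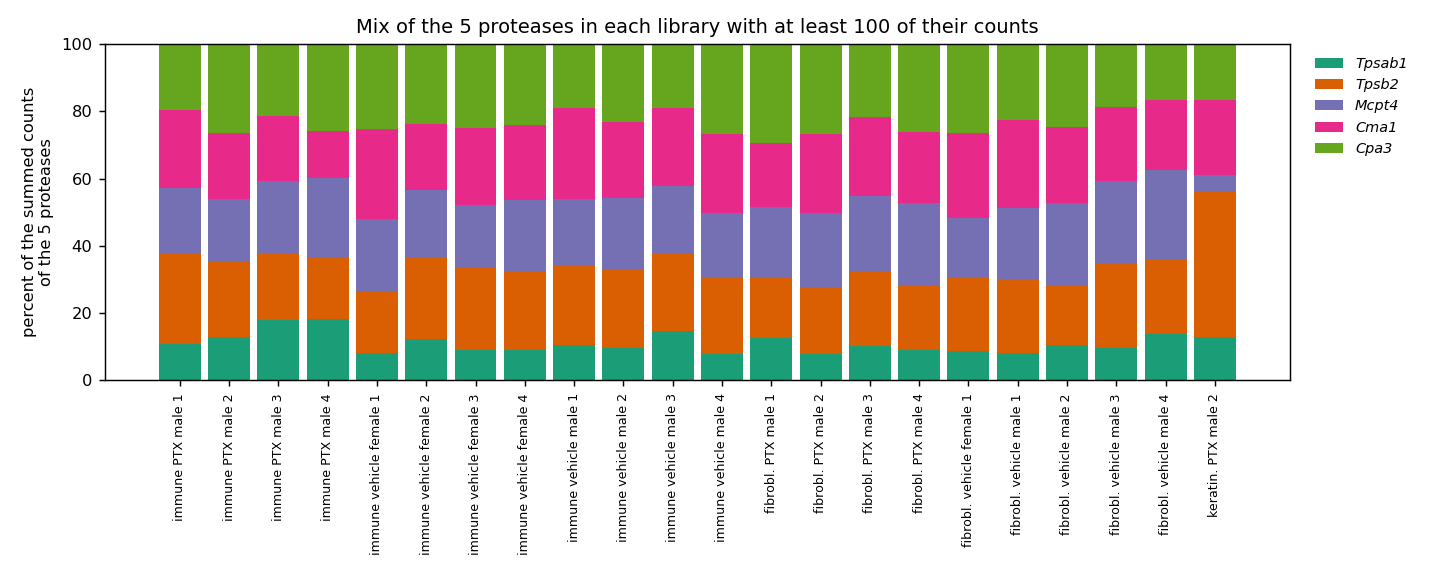
Share of each protease in the summed counts of the 5 (percent, stacked to 100) in each library with at least 100 such counts, PTX males left of vehicle libraries within a sort. Immune and fibroblast libraries look alike, and keratinocyte PTX male replicate 2 has 43.1% Tpsb2 and 5.14% Mcpt4.

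Ratios of counts within a library do not depend on library scaling, and 27 of them were tested (4 between members and each member over Kit, in 3 comparisons). Exact two-sided permutation tests over libraries were used, which cannot give less than 0.0286 with 4 against 4. An adjusted p under 0.05 thus needed many of the 27 ratios at this floor together. A ratio that did not pass is therefore not shown to be unchanged. After Benjamini-Hochberg adjustment 0 of 27 passed, and 1 had an unadjusted p under 0.05. That one was Cma1 over Kit, with a mean log2 ratio of 1.14 ± 0.42 in PTX males and 1.82 ± 0.25 in vehicle males, a difference of -0.69 (exact permutation p = 0.0286, adjusted p = 0.309). The log2 ratio of Tpsb2 to Tpsab1 was 0.56 ± 0.62 in PTX males, 1.25 ± 0.20 in vehicle females and 1.16 ± 0.35 in vehicle males.

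Genes of the same pathway were counted next. Among receptors and identity genes of mast cells, 6 of 12 tested passed as higher in PTX males than in vehicle males and 0 as lower, with a median log2 fold change of 1.86. Kit, the receptor for stem cell factor, had 575, 392, 200 and 440 CPM in PTX males, 403, 441, 333 and 403 CPM in vehicle females, and 82.8, 93.8, 74.0 and 174 CPM in vehicle males. Kit did not overlap between vehicle males and either other group, with log2 fold changes of 1.92 ± 0.35 for PTX males (adjusted p = 0.0100) and 1.89 ± 0.35 for vehicle females (adjusted p = 0.0326). Also higher in PTX males than in vehicle males were Mrgprb1 (2.62 ± 0.49, adjusted p = 0.0119), a Mas-related receptor, Mrgprb2 (2.58 ± 0.62, adjusted p = 0.0311), the mast cell receptor for basic secretagogues, and Il1rl1 (1.82 ± 0.46, adjusted p = 0.0384), the receptor of interleukin 33. Gata2, a transcription factor of mast cells, was higher too (1.90 ± 0.50, adjusted p = 0.0427), as was Tph1 (3.19 ± 0.83, adjusted p = 0.0410). In vehicle females over vehicle males Kit was the 1 of these 12 that passed. The median log2 fold change of the list was 1.42 there, beside 0.004 over all genes tested. An unadjusted p under 0.05 was found for 6 of the 12 there and for 8 in PTX males over vehicle males. Fcer1a and Ms4a2, the alpha and beta chains of the IgE receptor, did not pass in either comparison. Not all of the list was higher in PTX males than in vehicle males. By edgeR Rgs13 was at -8.64 ± 3.25 (adjusted p = 0.151) and Fcer1a at -0.27 ± 1.04 (adjusted p = 0.796). Fcer1a was at 23.5 ± 20.2 CPM in PTX males, 92.5 ± 29.6 in vehicle females and 28.5 ± 19.2 in vehicle males, and Ms4a2 at 16.5 ± 26.2, 17.1 ± 7.61 and 5.41 ± 4.60 CPM in the same groups.

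Of 14 genes for granule storage, processing and release, Hdc was the 1 that passed in PTX males over vehicle males (2.08 ± 0.45, adjusted p = 0.0206). Hdc makes histamine and was at 1214 ± 679 CPM in PTX males, 621 ± 275 in vehicle females and 287 ± 105 in vehicle males. Srgn, the serglycin core that binds the proteases, did not pass (1.08 ± 0.46, adjusted p = 0.191), nor did Ctsc, the peptidase that activates granule serine proteases (0.75 ± 0.25, adjusted p = 0.0932). The median of the list was 0.91 in PTX males and 0.29 in vehicle females, both over vehicle males, and 0 of 14 passed in vehicle females with edgeR, with 1 at an unadjusted p under 0.05.

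Other granule serine proteases were scarce. Of 9 listed, 5 passed the filter on low counts and 0 passed the edgeR test in any of the 3 immune comparisons, with 1 at an unadjusted p under 0.05 in vehicle females over vehicle males and 0 in the others. Tpsg1, the membrane-anchored gamma tryptase, was at 24.4 ± 23.6 CPM in PTX males, 47.5 ± 11.2 in vehicle females and 5.42 ± 2.95 in vehicle males, and Ctsg, cathepsin G, at 40.7 ± 37.8, 39.6 ± 16.3 and 7.97 ± 6.85 CPM in the same groups. Mcpt1 and Mcpt2, proteases of mucosal mast cells, were at or near 0 in all 12 immune libraries (at most 0.195 and 0 CPM). Mcpt8, a protease of basophils, was at 0 in all PTX male and vehicle male libraries and averaged 1.95 ± 1.90 CPM in vehicle females. Of the 5 basophil markers, 4 were tested and 0 passed with edgeR in any immune comparison (2 at an unadjusted p under 0.05 in PTX males over vehicle males, 0 in the others), and their summed level was 100 to 371 CPM in PTX males, 125 to 202 CPM in vehicle females and 16.1 to 89.5 CPM in vehicle males. Their part in the protease levels was not tested.

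Among protease inhibitors Serpinb1a, an intracellular serpin that blocks chymotrypsin-like and elastase-like enzymes, had 830, 442, 436 and 620 CPM in PTX males, 645, 699, 689 and 720 CPM in vehicle females, and 160, 204, 124 and 298 CPM in vehicle males. It did not overlap between vehicle males and either other group, and passed in both comparisons over vehicle males, at 1.57 ± 0.29 for PTX males (adjusted p = 0.0109) and 1.81 ± 0.29 for vehicle females (adjusted p = 0.0153). Serpina3n, a secreted serpin, was the other inhibitor of 6 tested that passed in PTX males, as lower (-6.77 ± 1.60, adjusted p = 0.0292). Mmp2, a matrix protease listed among known targets, was lower in PTX males (-5.34 ± 0.69, adjusted p = 0.00207) and in vehicle females (-3.65 ± 0.63, adjusted p = 0.0281), the 1 of 6 tested targets that passed. Kitl, the ligand of Kit, was the 1 of 4 tested growth ligands that passed, as lower in PTX males (-5.89 ± 1.58, edgeR adjusted p = 0.0455). Its level was 0.258 ± 0.136 CPM in PTX males, 11.9 ± 7.68 in vehicle females and 15.7 ± 10.9 in vehicle males. Fibroblast markers in these libraries summed to 235 to 1442, 82.4 to 387 and 4296 to 9881 CPM in the same groups. The part of fibroblasts in the levels of Serpina3n, Mmp2 and Kitl was not tested.

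Markers of other cells moved in the same comparisons. Over vehicle males, PTX males had 4 of 7 fibroblast, 4 of 6 endothelial, 3 of 6 pericyte, 3 of 6 basal keratinocyte and 1 of 4 skeletal muscle markers lower and 3 of 7 dendritic and Langerhans cell markers higher, and vehicle females had 5 of 7 fibroblast markers lower. The endothelial sum was 0.426 to 102 CPM in PTX males, 34.9 to 108 CPM in vehicle females and 60.8 to 391 CPM in vehicle males, and the pericyte sum was 2.6 to 39.7, 127 to 612 and 304 to 1819 CPM in the same groups. The basal keratinocyte sum was 0.682 to 26.0, 15.8 to 69.6 and 76.7 to 2253 CPM. The skeletal muscle sum was 1.5 to 62.2 CPM in PTX males, 9.94 to 27.8 CPM in vehicle females and 16.3 to 902 CPM in vehicle males. The dendritic and Langerhans sum was 22980 to 45760 CPM in PTX males, 9146 to 16890 CPM in vehicle females and 7898 to 13000 CPM in vehicle males. Of 5 markers of all immune cells 0 passed in any immune comparison with edgeR, and 2 had an unadjusted p under 0.05 in PTX males over vehicle males. So had 2435 of all 12131 genes tested there. Of 8 macrophage markers 0 passed, and 3 had an unadjusted p under 0.05 there. Emr1 is the older symbol of Adgre1, a listed macrophage marker that was not matched by symbol, so it was not among these 8. Its test is not given here. It was at 783 ± 162 CPM in PTX males, 635 ± 104 in vehicle females and 384 ± 71.8 in vehicle males. Over vehicle females, PTX males had 3 of 7 dendritic and Langerhans cell markers and the fibroblast marker Col1a2 (3.10 ± 0.63, adjusted p = 0.0324) higher, and the endothelial marker Pecam1 (-7.92 ± 1.26, adjusted p = 0.0183) and the pericyte marker Rgs5 (-7.06 ± 1.23, adjusted p = 0.0183) lower. There 0 of the 12 mast cell receptor and identity genes passed with edgeR, with 2 at an unadjusted p under 0.05. The part of these cells in the protease differences was not tested.

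The genes whose pattern over the 12 immune libraries was most like the mean of the 5, out of 10372 ranked by Pearson's r on log2(CPM + 1), were Serpinb1a (0.966), Kit (0.962), Cyp11a1 (0.854), Gata2 (0.840), Il1rl1 (0.837), Cd209d (0.827), Mrgprb1 (0.820), Pld4 (0.801), Mrgprb2 (0.798) and Emr1 (0.794). Serpinb1a and Kit stood well above the third. These values are a description: the groups differ in level, and vehicle males are low in the members. With group means taken off, r of the 10 fell between 0.269 (Cd209d) and 0.855 (Kit), and 1 of them was still among the 10 highest. By Spearman's rho 3 of the 10 stayed among the 10 highest. Pld4 and Emr1 are macrophage or dendritic cell genes in mice, and they were high in every immune library, at 912 ± 142 and 783 ± 162 CPM in PTX males, 799 ± 21.0 and 635 ± 104 in vehicle females, and 589 ± 84.3 and 384 ± 71.8 in vehicle males.

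**Figure D4:**
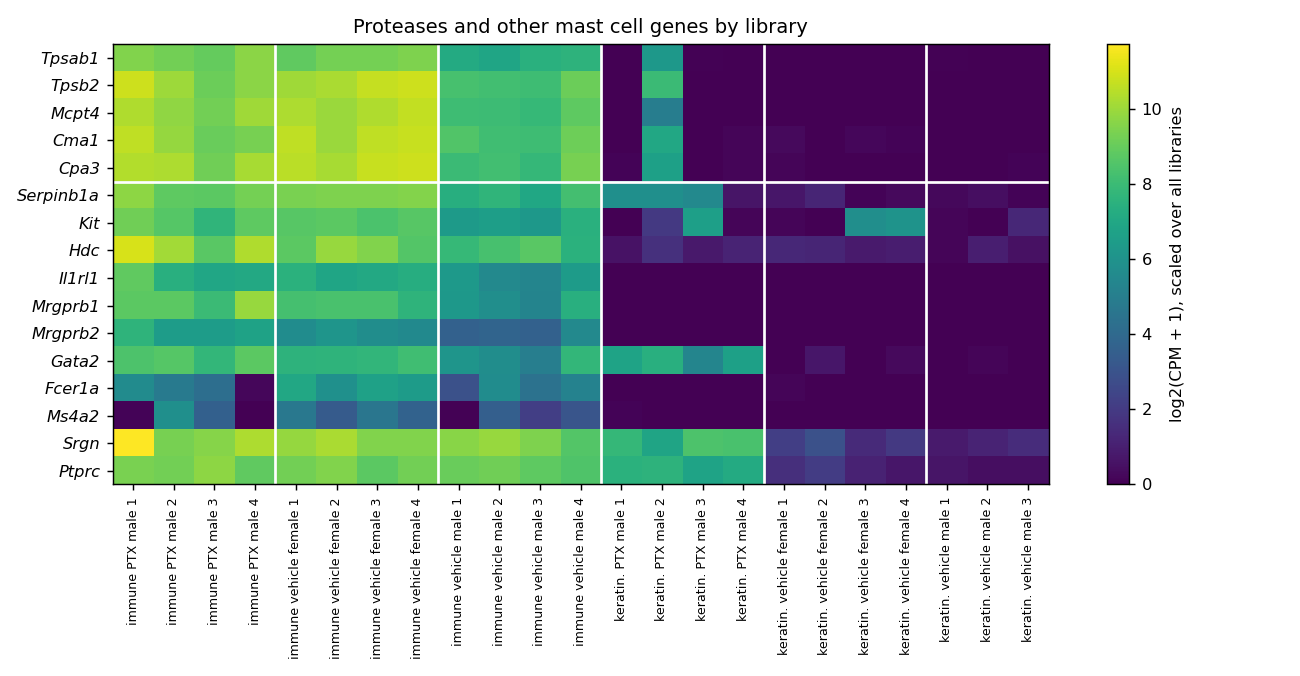
Levels of the 5 proteases (above the horizontal white line) and of 11 other genes in each immune and keratinocyte library, as log2(CPM + 1) scaled over all libraries, with PTX males left of vehicle libraries within a sort. In keratinocyte PTX male replicate 2 the proteases are present while Fcer1a, Ms4a2, Il1rl1, Mrgprb1 and Mrgprb2 are at 0 counts.

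In the fibroblast sort the proteases were traces. Summed, they were at 9.15 to 38.4 CPM in PTX males, 3.65 to 7.47 CPM in vehicle females and 5.91 to 25.8 CPM in vehicle males. Tpsb2 had 1.64, 3.26, 8.48 and 2.40 CPM in PTX males, 1.63, 0.892, 1.12 and 1.10 CPM in vehicle females, and 5.65, 1.55, 1.49 and 2.94 CPM in vehicle males. PTX male replicate 3 was the highest library for all 5 members and vehicle male replicate 1 the highest of its group for each. All 5 passed the filter and 0 of 5 passed the test of PTX males over vehicle males with edgeR or DESeq2, 0 had an unadjusted p under 0.05, and 0.00921% of genes were called in each direction. Log2 fold changes ranged from 0.43 ± 1.55 (Cma1) to 0.73 ± 1.54 (Cpa3), with an adjusted p of 0.995 for each, so a change of several fold was not detectable. Without PTX male replicate 3 those of Tpsab1, Tpsb2, Mcpt4 and Cma1 were -0.21, -0.29, -0.16 and -0.25.

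The 5 markers of all immune cells summed to 11.4 to 43.5 CPM in fibroblast libraries of PTX males, 3.88 to 7.83 CPM in those of vehicle females and 7.25 to 45.5 CPM in those of vehicle males, and their part in the traces was not tested. In libraries with at least 100 counts of the 5, Cpa3 made up 21.7 to 29.5% of them in PTX males and 16.6 to 24.6% in vehicle males, and Tpsab1 7.88 to 12.7% and 8.28 to 13.7%. Per count of Ptprc there were 8.50 ± 2.10 counts of the 5 in PTX males, 8.23 ± 1.62 in vehicle females and 12.4 ± 10.7 in vehicle males, whose replicate 2 had 28.4 with 5 Ptprc counts. Pooled over vehicle libraries, the members were 406 to 515 times higher in immune cells than in fibroblasts. The ratio was 515 for Cpa3 (95% interval 456 to 585) and 406 for Tpsab1 (342 to 486), and these intervals cover counting error only. In the fit over all 35 libraries 5 of 5 passed as higher in vehicle immune cells than in vehicle fibroblasts, by 8.08 to 8.37 on the log2 scale (adjusted p from 6.04e-08 to 5.98e-06), where 12.2% of genes were called higher and 7.22% lower. The PTX effect did not differ detectably between immune cells and fibroblasts for any member (differences of 0.77 to 1.53 with SEs of 1.53 to 1.83, adjusted p of 0.912 or more, 0 with an unadjusted p under 0.05 and 0 with DESeq2), where 0.0484% of genes were called higher and 1.64% lower.

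Keratinocyte libraries held almost none of the 5, with 1 exception. In 10 of 11 libraries each member had between 0 and 2 counts. PTX male replicate 2 had 2400 counts of Tpsb2, 1233 of Cma1, 934 of Cpa3, 713 of Tpsab1 and 286 of Mcpt4, or 310, 159, 121, 92.2 and 37.0 CPM. All 5 together were at 720 CPM there, against 0.0800 to 0.285 CPM in the other 3 PTX male libraries and 0 to 0.418 CPM in the vehicle libraries. Because 1 library held the counts, 0 of 5 passed the filter on low counts, and the PTX comparison within keratinocytes has no value for them (1.15% of genes were called higher there and 0.302% lower). In vehicle libraries Tpsb2 and Mcpt4 had 0 counts in total over 7 libraries. By a floor of 3 counts over the group, or 0.0536 CPM, vehicle immune cells were at least 17200-fold and 15300-fold higher. The 95% interval of each gene reached 0.0659 CPM, above this floor, so by that interval the minima would be lower. For Cma1 the pooled ratio was 10600 (95% interval 4530 to 32600) from 5 keratinocyte counts. All 5 passed as higher in vehicle immune cells than in vehicle keratinocytes in edgeR's fit over all libraries (highest adjusted p 1.30e-07). There 21.5% of genes were called higher and 6.6% lower. The members entered that fit through the immune libraries, where they are high, so these p-values are no evidence beyond the counts.

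The mix in keratinocyte PTX male replicate 2 was unlike that of any immune library. Tpsb2 made up 43.1% of the 5, against 18.2 to 27.1% over the immune libraries, and Mcpt4 5.14%, against 18.7 to 23.6%. Of the 13 mast cell receptor and identity genes 10 were at 0 counts in it, Fcer1a, Ms4a2, Mrgprb1, Mrgprb2 and Il1rl1 among them. The list summed to 214.6 CPM there and to 205.8 to 263.3 CPM over all 4 PTX keratinocyte libraries, and Gata2 made up 205 CPM of it in replicate 2, with 1588 counts there and 669 to 1558 in the other 3. Replicate 2 also had 27 counts of Kit and 20 of Hdc. Ptprc was no higher there (1824 counts) than in the other PTX keratinocyte libraries (1247 to 2471), and neither was Srgn (1079, against 2834 to 5741). Replicate 3 of the same group had 1602 counts of Kit and at most 1 count of any protease, and Kit also had 657 and 832 counts in 2 vehicle female libraries. The summed level of 5 markers of all immune cells was 590 to 1018 CPM in PTX males, 7.19 to 71.1 CPM in vehicle females and 5.78 to 39.0 CPM in vehicle males, and its part in the protease counts was not tested.

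**Figure D5:**
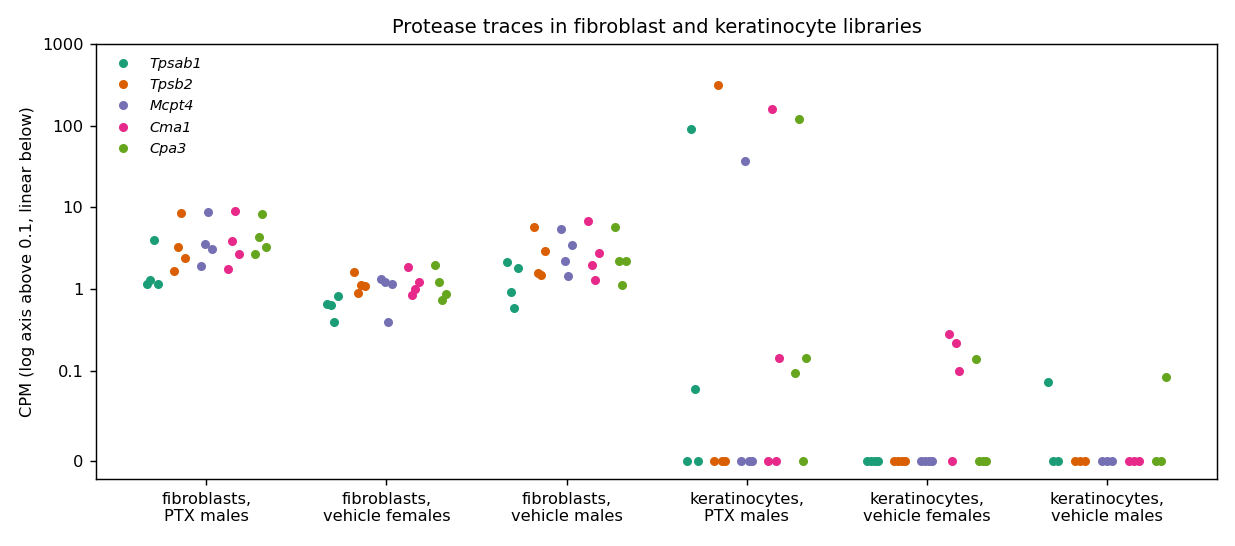
Level of each protease (CPM, log axis above 0.1 and linear below) in the fibroblast and keratinocyte libraries, PTX males left of vehicle females and vehicle males; each point is a library. Fibroblast values lie between 0.393 and 9.04 CPM, and 1 keratinocyte library reaches 310 CPM (Tpsb2) while the others reach at most 0.279 CPM.

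The difference between the PTX effect in immune cells and that in keratinocytes rested on this library, and the members entered that fit through the immune libraries, where they are high. Its p-values are therefore no evidence of a PTX effect in keratinocytes. With the library, 5 of 5 members passed as lower in immune cells (differences of -7.02 for Tpsab1 to -11.19 for Tpsb2, adjusted p from 0.00372 to 0.0268), where 11.4% of genes were called lower and 0.325% higher. Without it 0 of 5 passed, and the differences were 2.14 for Tpsab1, 1.57 for Tpsb2, 1.66 for Mcpt4, -0.74 for Cma1 and 0.76 for Cpa3. Without keratinocyte vehicle male replicate 1, 2 or 3, which left 2 vehicle libraries, 4, 3 and 3 members passed.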

How the data were processed

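Per the labels' protocols, the authors made stranded TruSeq mRNA libraries and read 50 bases from 1 end. The submitters' processing notes name bcl2fastq, TopHat2, HTSeq and the mm9 build. Their versions, the annotation and the strandedness option of the counting were not given in the sources. The authors deposited raw counts per gene symbol, without normalization. HTSeq's classes of reads outside genes were left out. By group means 12.1 to 25.5% of reads fell in no feature, 35.9 to 55.3% did not align uniquely, 0.277 to 0.382% were ambiguous and 21.2 to 49.3% lay in genes.

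Each sort was fitted alone with edgeR 4.0.16 (filterByExpr, TMM scaling, robust quasi-likelihood test, Benjamini-Hochberg adjustment at 0.05), and comparisons between sorts used 1 fit of all 35 libraries. SEs are the log2 fold change divided by the square root of F. The procedure was tested on simulated data. Also tried were DESeq2 1.42.0, RLE scaling, all genes with a count in place of the filter, a block for the replicate number, limma 3.58.1 voom with quality weights, plain CPM, scaling on immune genes, a fit of only the 2 groups compared, and each library left out. Other work used R 4.3.3, Python 3.11.15, pandas 2.3.3, scipy 1.17.1 and matplotlib 3.10.9. Ratios within a library had 0.5 added to each count. Intervals and floors cover counting error only, and reads carried no molecular identifiers.

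The 5 members and the 18 lists (131 of 135 entries found) were chosen with earlier results of these data known. From each list up to 4 genes past the threshold with the lowest p and up to 2 others by value were named. In the mast cell receptor and identity list Gata2 and Tph1, past the threshold at higher p, were named besides these 4. For likeness, the 10 genes with the highest r were named, among those with a mean of at least 5 CPM. Mcpt1, Mcpt2, Mcpt8 and Rgs13, and the genes named for keratinocyte PTX male replicate 2, were chosen after their values were seen. The likeness with group means taken off was also added after seeing the data. Sequences came from GENCODE M21 transcripts and RefSeq promoters of GRCm38.p6, matched by symbol, and no coordinate of the authors' build was used. 3 of the 5 members matched a promoter entry.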

Additional observations from a re-analysis of the deposited data

Results flagged for a closer look

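In 10 of 37 sets of 4 libraries (1 gene in 1 group), 1 library lay far from the other 3 by Dixon's test. The sets are not independent, because the 5 genes share libraries and vary together, so no chance rate is set beside this number. Of the 10 sets, 5 came from keratinocyte PTX male replicate 2. It had 92.2 CPM of Tpsab1, 310 CPM of Tpsb2, 37.0 CPM of Mcpt4, 159 CPM of Cma1 and 121 CPM of Cpa3. The other 3 libraries of its group had at most 1 count of each gene. In immune vehicle male replicate 4, Tpsb2 was at 546 CPM, Mcpt4 at 460 CPM and Cpa3 at 648 CPM, each well above the other 3 vehicle males. Fibroblast PTX male replicate 3 had 3.92 CPM of Tpsab1, and the 0.139 CPM of Cpa3 in keratinocyte vehicle female replicate 1 was 1 count.

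The PTX effect in immune cells minus that in keratinocytes was called for all 5 members by edgeR's interaction term, at -7.02 for Tpsab1 (adjusted p = 0.0268), -11.19 for Tpsb2 (adjusted p = 0.00778), -8.04 for Mcpt4 (adjusted p = 0.0198), -10.5 for Cma1 (adjusted p = 0.00372) and -7.84 for Cpa3 (adjusted p = 0.0092). All 5 calls were lost without keratinocyte PTX male replicate 2, the 1 keratinocyte library with more than 2 counts of any member, so they are no evidence of a PTX effect in keratinocytes.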

How the results depend on the processing

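Of 225 member results recomputed with every library in, 202 kept their direction and side of the threshold, 21 lost their call and 2 changed sign. The members called higher in PTX males over vehicle males numbered 5, and were 4 without the filter and 4 in the fit of 2 groups (Cma1 lost in both), 3 with the replicate block, 2 with voom, 2 with plain CPM, 1 with scaling on immune genes and 2 to 5 with a library left out. In vehicle females over vehicle males they numbered 5, and were 4 with the replicate block (Tpsb2 lost), 1 with scaling on immune genes and 2 to 5 with a library left out. The 5 members called lower for immune cells against keratinocytes were 3 with the replicate block and 0 to 5 with a library left out.

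Genes called for PTX males over vehicle males numbered 669, and were 407 without the filter, 1870 with DESeq2, 148 with the block, 38 with voom and 230 to 954 with a library left out. For vehicle females over vehicle males 43 became 284 with DESeq2, 24 with the block, 445 with voom, 166 in the fit of 2 groups and 12 to 29 with a library left out. For PTX males over vehicle females 213 became 94 without the filter, 1258 with DESeq2, 3 with the block, 1 with voom, 2 in the fit of 2 groups and 8 to 520 with a library left out. In fibroblasts 2 became 1 with RLE, 4 without the filter, 412 with DESeq2, 0 with voom, 1 with plain CPM and 0 to 4 with a library left out. In keratinocytes 159 became 1339 with DESeq2, 339 with voom and 84 to 121 with a library left out. Between immune cells and fibroblasts 2807 became 494 with the block, and between immune cells and keratinocytes 4060 became 1069. For the difference of PTX effects, 244 (fibroblasts) became 1719 with DESeq2, 83 with the block and 93 to 245 with a library left out, and 1690 (keratinocytes) became 3464 with DESeq2, 903 with the block and 952 to 1673 with a library left out. The cause of these changes was not tested.

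Tpsab1 in PTX males over vehicle females was -0.14 with plain CPM, -0.065 with scaling on immune genes and -0.066 to 0.24 with a library left out. In fibroblasts, leaving out a library gave -0.21 to 0.77 for Tpsab1, -0.29 to 0.98 for Tpsb2, -0.16 to 0.87 for Mcpt4 and -0.25 to 1.11 for Cma1, each lowest without PTX male replicate 3. The difference of PTX effects from keratinocytes ranged from -8.91 to 2.14 for Tpsab1, -11.62 to 1.57 for Tpsb2, -8.46 to 1.66 for Mcpt4 and -9.79 to 0.76 for Cpa3, each highest without keratinocyte PTX male replicate 2.

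Replicate numbers are not said to pair the libraries. Deviations of same-numbered PTX and vehicle males correlated at -0.044 to 0.048, which cannot exclude a shared batch. Low member counts limit the precision of the fibroblast and keratinocyte values. With 4 libraries a group, exact tests cannot give less than 0.0286.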
